A study of Homo sapiens with 8 samples.

Results

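The mitochondrial genome encodes 7 subunits of complex I, and their mRNAs, MT-ND1, MT-ND2, MT-ND3, MT-ND4, MT-ND4L, MT-ND5 and MT-ND6, were followed here in colorectal cancer cells with raised TRMT6 and TRMT61A. They were picked by name from a table of 58302 genes, as the complete set of complex I genes in mitochondrial DNA. All 7 were detected in every library and passed the filter on low counts.

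The cells were DLD1, a human colorectal cancer line with epithelial character. In OE-WT cells a lentiviral vector stably expressed wild-type TRMT6 and TRMT61A together, and in CTRL cells the same kind of vector was empty. Each group had 2 RNA sequencing libraries, and each library was run on 2 lanes that share 1 column of counts, so n was 2 per group. The labels describe lysis in the presence of cycloheximide, RNA from the cleared supernatant and selection of poly(A)+ RNA on oligo(dT) beads, while the study's methods describe removal of ribosomal RNA. The series' design text also names separate overexpression of each gene, but the labels of these libraries give 1 joint genotype. The design text speaks of duplicate cultures, while the study's methods speak of biological replicates and give a higher number per group than the table holds. The p-values measure only the spread between these libraries.

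Complex I, or NADH:ubiquinone oxidoreductase, is the entry point of electrons from NADH into the respiratory chain, and it pumps protons across the inner mitochondrial membrane. Its mitochondrial-encoded subunits form the core of the membrane arm, while the peripheral arm that oxidizes NADH is built from nuclear-encoded proteins imported into the organelle. Both strands of mitochondrial DNA are transcribed as long polycistronic RNAs, from which tRNAs are excised and the mRNAs between them are released. TRMT6 and TRMT61A form the methyltransferase that installs m1A on cytosolic tRNA, and the m1A enzymes of mitochondrial RNA are TRMT61B and TRMT10C, the latter also known to methylate MT-ND5 mRNA.

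The 3′ ends of the 7 annotated genes are shown because they set the members apart. In some the stop codon is written out in the DNA, and in the others it is completed only when the poly(A) tail is added. These are ends of reading frames and need not be ends of mRNAs. That of MT-ND4L lies inside the mRNA it shares with MT-ND4. Each line gives the last 30 bases of the annotated gene 5′ to 3′ on the coding strand, from the GRCh38 genome with GENCODE release 44, and capitals mark the bases of the stop codon present in the DNA.
MT-ND1, chrM:4233-4262, plus strand: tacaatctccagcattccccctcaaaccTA
MT-ND2, chrM:5482-5511, plus strand: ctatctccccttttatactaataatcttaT
MT-ND3, chrM:10375-10404, plus strand: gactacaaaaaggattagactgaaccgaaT
MT-ND4, chrM:12108-12137, plus strand: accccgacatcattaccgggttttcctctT
MT-ND4L, chrM:10737-10766, plus strand: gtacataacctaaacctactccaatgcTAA
MT-ND5, chrM:14119-14148, plus strand: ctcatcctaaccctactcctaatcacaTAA
MT-ND6, chrM:14149-14178, minus strand: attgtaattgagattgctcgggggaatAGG
MT-ND1, MT-ND2, MT-ND3 and MT-ND4 thus end in an incomplete stop codon, and MT-ND4L, MT-ND5 and MT-ND6 in a complete one. MT-ND6 is the only member read from the minus strand, and its last base lies directly next to that of MT-ND5. It is also the human mitochondrial mRNA known for lacking a poly(A) tail.

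A single stretch joins MT-ND4L and MT-ND4, which are translated from 1 bicistronic mRNA. It is shown because reads that span it touch both genes, and the capitals mark the 7 bases that both reading frames use.
MT-ND4L and MT-ND4, chrM:10749-10778, plus strand: aacctactccaATGCTAAaactaatcgtcc

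The libraries summed to between 10327498 and 12379671 counts. In CPM, which are counts scaled to a common library size with TMM factors, TRMT6 was at 210 and 181 in the OE-WT libraries and at 52.5 and 55.3 in the CTRL libraries. TRMT61A was at 137 and 130 in OE-WT and at 58.8 and 56.7 in CTRL, so both targeted genes were higher in the libraries labelled as overexpressing. Of the 11 colon epithelial markers 10 were tested, of which 2 were called higher in OE-WT (KRT8 and KRT18) and 4 lower (KRT19, CDH1, CEACAM5 and KRT20), so this list moved with the groups, and its part in the results was not tested. EPCAM lay between 460 and 544 CPM, KRT8 between 4963 and 6097 CPM and CDX2 between 95.3 and 115 CPM. KRT20 was at 8.35 and 9.91 CPM in OE-WT against 27.1 and 25.3 CPM in CTRL, and LGALS4, CEACAM5 and GPA33 were near 0, at no more than 2.09 CPM in any library. Markers of fibroblasts summed to 1.47 to 2.31 CPM with 3 of 5 at 0 in every library, those of leukocytes to 0.233 to 0.392 CPM with 1 of 4 at 0 in every library, and those of endothelium to 0.589 to 2.33 CPM with 1 of 3 at 0 in every library. Across all 14133 genes tested, edgeR's quasi-likelihood test called 1334 higher in OE-WT and 1642 lower (adjusted p below 0.05), and with the plain library size in place of TMM scaling the call was higher for 735 of 3183 genes.

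The complex I mRNAs took a larger share of the counts in OE-WT cells compared with CTRL cells. Summed, they held 11.1% and 9.78% of all counts on genes in the OE-WT libraries against 8.10% and 9.50% in the CTRL libraries. The mean was 10.4% ± 0.899 (SD, n = 2) in OE-WT and 8.80% ± 0.988 (SD, n = 2) in CTRL, a ratio of 1.18. The groups did not overlap, but the gap between OE-WT library 2 and CTRL library 2 was small next to the gaps within each group. An exact two-sided permutation test gave p = 0.333, the smallest value that 2 against 2 libraries allow. As a share of the counts on nuclear genes, which leaves the other mitochondrial RNAs out, the sum was 16.6% and 13.9% in OE-WT and 10.8% and 13.1% in CTRL, a ratio of 1.28. Taken singly, 5 members held a larger share of all counts in both OE-WT libraries, such as MT-ND4 with 3.53% and 3.04% against 2.51% and 2.98% in CTRL, while 20.2% of all genes tested did so. The shares of MT-ND1 (2.49% and 2.36% against 2.08% and 2.38%) and MT-ND3 (0.420% and 0.334% against 0.304% and 0.361%) overlapped between the groups. In bulk RNA, more of a transcript per cell and a different mix of cells cannot be told apart.

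Gene by gene, 5 of the 7 mRNAs rose in OE-WT cells (adjusted p below 0.05), against 9.44% of all genes tested. The 5 were MT-ND4L, MT-ND5, MT-ND6, MT-ND4 and MT-ND2, with folds between 1.22 and 1.43. MT-ND1 and MT-ND3 had positive estimates that missed the threshold. The median log2 fold change of the 7 was 0.35, and that of all genes tested was 0.01. None of the 7 met the study's thresholds of an unadjusted p below 0.05 with an absolute log2 fold change above 1, which 3.15% of all genes met.

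MT-ND2, MT-ND4 and MT-ND5 encode the antiporter-like subunits, the large membrane proteins that carry the proton channels. MT-ND5, the most distal of them, was at 19100 and 15195 CPM in the OE-WT libraries and at 10877 and 13081 CPM in the CTRL libraries. Both OE-WT libraries lay above both CTRL libraries, and the log2 fold change was 0.52 ± 0.10 (SE, adjusted p = 0.000981), a fold of 1.43 with a 95% interval of 1.25 to 1.65. MT-ND4 was at 37117 and 30831 CPM in OE-WT and at 24074 and 29084 CPM in CTRL. It was the most counted of the 7 mRNAs, its groups were separated by the small step from CTRL library 2 to OE-WT library 2, and its log2 fold change was 0.35 ± 0.10 (SE, adjusted p = 0.0162). MT-ND2 was at 21100 and 19170 CPM in OE-WT and at 15207 and 17930 CPM in CTRL. Its groups did not overlap either, with a log2 fold change of 0.28 ± 0.09 (SE, adjusted p = 0.0303).

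MT-ND1, MT-ND3, MT-ND4L and MT-ND6 encode the subunits where the membrane arm meets the peripheral arm, and MT-ND1 helps to form the ubiquinone-binding chamber. MT-ND4L, the shortest gene of the set at 297 bases, was at 2069 and 1668 CPM in OE-WT and at 1155 and 1451 CPM in CTRL. Its libraries separated by group, with a log2 fold change of 0.52 ± 0.10 (SE, adjusted p = 0.000555). MT-ND6 was at 6290 and 4925 CPM in OE-WT and at 3532 and 4438 CPM in CTRL, again with no overlap, and rose by a log2 fold change of 0.49 ± 0.10 (SE, adjusted p = 0.00171). MT-ND1 was at 26168 and 23932 CPM in OE-WT and at 20004 and 23285 CPM in CTRL. Its groups did not overlap, yet the log2 fold change of 0.21 ± 0.09 (SE) had an adjusted p of 0.104. MT-ND3 was at 4419 and 3386 CPM in OE-WT and at 2922 and 3531 CPM in CTRL. It was the only member whose groups overlapped, because OE-WT library 2 lay below CTRL library 2, and its log2 fold change was 0.27 ± 0.10 (SE, adjusted p = 0.0592).

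**Figure D1:**
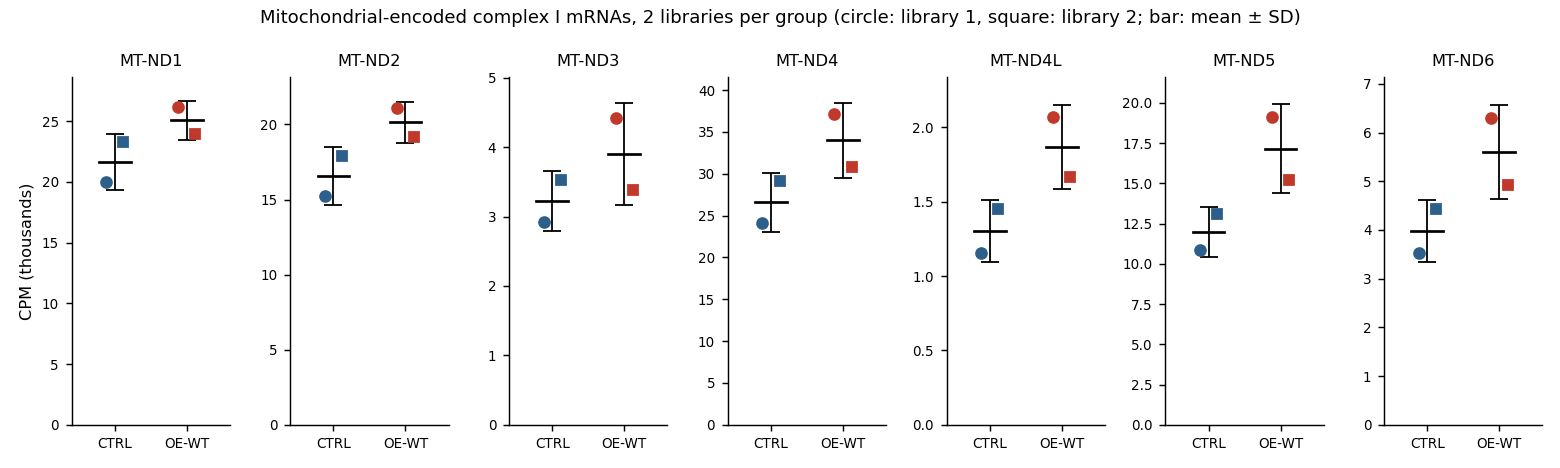
CPM (divided by 1000, linear axis from 0) of each complex I mRNA in the 2 CTRL (blue) and 2 OE-WT (red) libraries, with library 1 as a circle, library 2 as a square and the mean ± SD as a bar. OE-WT library 1 is the highest and CTRL library 1 the lowest in every panel, and MT-ND3 is the only gene in which the groups overlap.

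The order of the libraries was the same for nearly all members. OE-WT library 1 was the highest and CTRL library 1 the lowest for all 7 mRNAs, and the libraries numbered 2 lay between them. In 6 of the 7 the CPM of the groups did not overlap and were higher in OE-WT, against 29.9% of all genes tested. The calls and the log2 fold changes leaned on the outer libraries. Without OE-WT library 1 only MT-ND4L was called (log2 fold change 0.36, adjusted p = 0.00995 in edgeR's quasi-likelihood test), against 5.78% of all genes called higher. The log2 fold changes were then 0.34 for MT-ND5, 0.31 for MT-ND6, 0.22 for MT-ND4, 0.21 for MT-ND2, 0.15 for MT-ND1 and 0.07 for MT-ND3 (adjusted p = 0.746). Without CTRL library 1, MT-ND4L (0.36), MT-ND5 (0.39) and MT-ND6 (0.34) were called, against 5.52% of all genes, and MT-ND4 had 0.22, MT-ND2 0.17, MT-ND3 0.14 and MT-ND1 0.11. Without CTRL library 2 all 7 were called, against 8.55% of all genes. Without OE-WT library 2 there were 5 calls, against 8.09% of all genes, with MT-ND3 (0.44) in and MT-ND2 (0.34) out. DESeq2 gave nearly the same log2 fold changes, 0.52 for MT-ND4L and MT-ND5 and 0.28 for MT-ND2, but called MT-ND2 alone (adjusted p = 0.0199), where it called 4.35% of all genes higher. With the plain library size only MT-ND4L, MT-ND5 and MT-ND6 were called, where 5.2% of all genes were called higher. No alternative turned the direction of any of the 7.

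Along the mitochondrial genome the fold changes were not even. The members with an incomplete stop codon, MT-ND1, MT-ND2, MT-ND3 and MT-ND4, had log2 fold changes of 0.21 to 0.35, and those with a complete one, MT-ND4L, MT-ND5 and MT-ND6, had 0.49 to 0.52. This split was noticed after the values were seen and carries no test. Among the mRNAs of other complexes the ranges overlapped, with 0.18 to 0.31 for MT-CO3 and MT-CYB, whose stop codons are incomplete, and 0.24 to 0.53 for MT-CO1, MT-CO2, MT-ATP6 and MT-ATP8, whose stop codons are complete. Over the 12 mRNAs of the plus strand, Spearman's rho of the log2 fold change with position was 0.46 and Pearson's r was 0.39. Both are descriptions, since the 12 points come from the same 4 libraries and from shared precursor RNA.

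**Figure D2:**
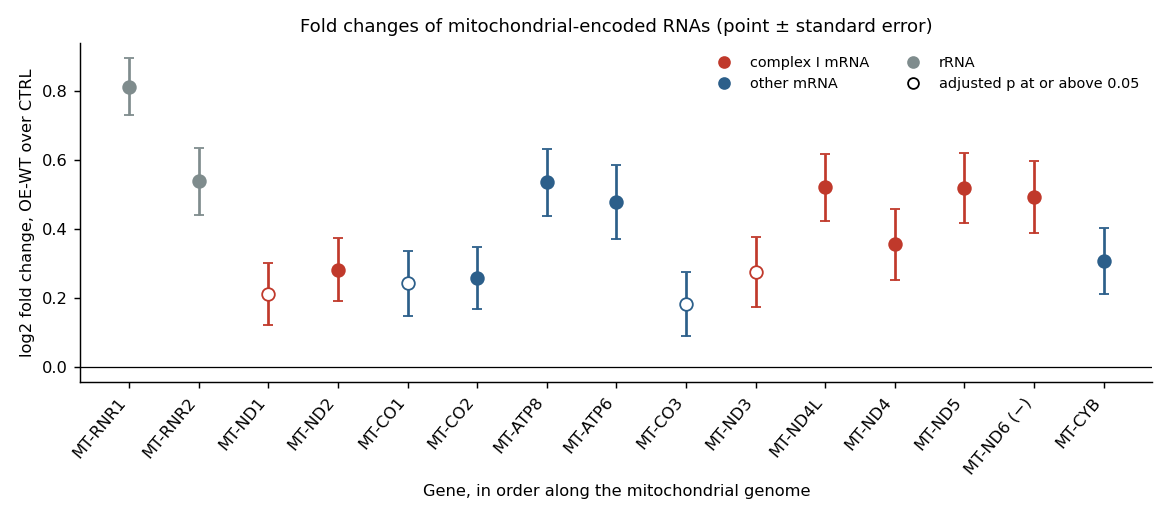
Log2 fold change of OE-WT over CTRL (point) with its standard error (bar) for the 2 rRNAs and 13 mRNAs of mitochondrial DNA, in order along the genome, with complex I mRNAs in red and open points for an adjusted p at or above 0.05. All lie above 0, from 0.18 for MT-CO3 to 0.81 for MT-RNR1, and the complex I mRNAs span 0.21 to 0.52.

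The complex I mRNAs were next set against the other mitochondrial mRNAs, which share their precursors but belong to other complexes. These are MT-CYB of complex III, MT-CO1, MT-CO2 and MT-CO3 of complex IV, and MT-ATP6 and MT-ATP8 of ATP synthase. Of these 6, MT-ATP8 (log2 fold change 0.53), MT-ATP6 (0.48), MT-CYB (0.31) and MT-CO2 (0.26) rose, and MT-CO1 (0.24, adjusted p = 0.0728) and MT-CO3 (0.18, adjusted p = 0.171) missed the threshold. Of all genes tested 9.44% were called higher. Only 2 of these 6 were called higher with DESeq2, with the plain library size or with a replicate block. The median log2 fold change of the 6 was 0.28. They held 15.9% and 14.0% of the counts in OE-WT against 12.8% and 13.8% in CTRL, so the share of the mRNAs outside complex I was higher in OE-WT as well.

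Within the 13 mitochondrial mRNAs the part taken by complex I was narrow. It was 41.05% and 41.09% in the OE-WT libraries, whereas the CTRL libraries had 38.8% and 40.7%, with CTRL library 1 lowest. When each member was tested with the sum of the other 6 mRNAs as the library size, 0 of 7 were called in edgeR's quasi-likelihood test, against 17.5% of all genes in either direction and 0.729% in the higher direction. None had an unadjusted p below 0.05, and DESeq2 with the same sum as size factor also called 0. The largest relative log2 fold changes were 0.26 for MT-ND4L (95% interval -0.13 to 0.65), 0.25 for MT-ND5 (-0.11 to 0.62) and 0.23 for MT-ND6 (-0.15 to 0.61). For MT-ND1 it was -0.05 (-0.40 to 0.31), for MT-ND2 0.02 (-0.34 to 0.39), for MT-ND3 0.01 (-0.38 to 0.39) and for MT-ND4 0.09 (-0.26 to 0.45). In this fit the spread was estimated over all genes, most of them nuclear, after scaling to mitochondrial counts. The standard errors of the members were 0.18 to 0.20, against 0.09 to 0.10 in the fit with TMM scaling. These intervals still allow relative changes as large as the called ones, so the test does not show that complex I mRNAs moved as the other mitochondrial mRNAs did.

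The single ratios differed between members. MT-ND5 amounted to 11.4% and 10.7% of the other 6 mRNAs in OE-WT and to 8.87% and 9.69% in CTRL. MT-ND4L amounted to 1.24% and 1.17% in OE-WT and to 0.943% and 1.08% in CTRL, and MT-ND6 to 3.77% and 3.47% against 2.88% and 3.29%. For these 3 and for MT-ND4 the groups did not overlap and were higher in OE-WT, against 7.63% of all genes by this ratio. By CPM, 29.9% of all genes were separated in this direction. The 6 mRNAs were themselves higher in OE-WT, which lowers this ratio for other genes. The 7.63% therefore does not show how unusual these members are. For MT-ND1 the ratios were 15.7% and 16.8% in OE-WT and 16.3% and 17.2% in CTRL, so the groups overlapped, as they did for MT-ND2 and MT-ND3.

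**Figure D3:**
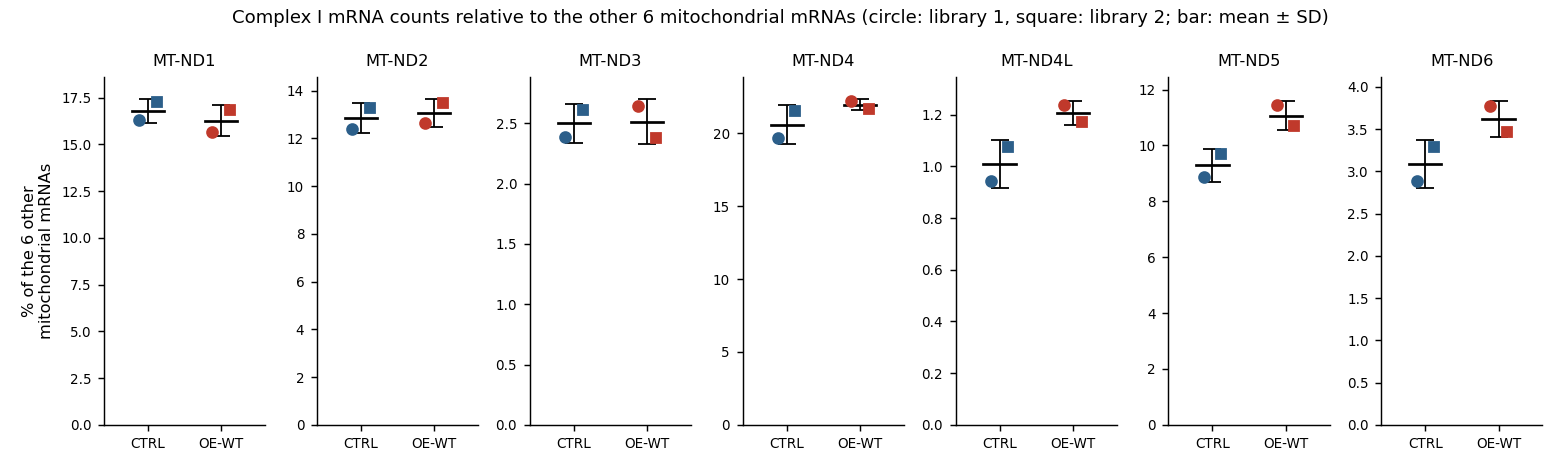
Counts of each complex I mRNA as a percent of the summed counts of the other 6 mitochondrial mRNAs (linear axis from 0), in the 2 CTRL (blue) and 2 OE-WT (red) libraries, with library 1 as a circle, library 2 as a square and the mean ± SD as a bar. MT-ND4, MT-ND4L, MT-ND5 and MT-ND6 are higher in both OE-WT libraries, while the groups overlap for MT-ND1, MT-ND2 and MT-ND3.

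Within complex I, MT-ND1 took a smaller part of the counts in both OE-WT libraries and MT-ND5 a larger one. MT-ND1 made up 22.5% and 24.1% of the 7 mRNAs in the OE-WT libraries against 25.7% and 25.1% in the CTRL libraries. MT-ND5 made up 16.4% and 15.3% in OE-WT and 14.0% and 14.1% in CTRL. Per 100 MT-ND1 counts there were 73.0 and 63.5 MT-ND5 counts in OE-WT against 54.4 and 56.2 in CTRL. The groups did not overlap in any of these ratios, and the exact permutation test could reach no p below 0.333 (two-sided). The parts of MT-ND4L (1.78% and 1.68% against 1.49% and 1.56%) and MT-ND6 (5.41% and 4.97% against 4.54% and 4.78%) were also larger in both OE-WT libraries. Those of MT-ND2, MT-ND3 and MT-ND4 overlapped. The 7 parts add up to the whole, so a larger part of some lowers that of others. Such a separation was not counted over all genes.

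Neighbouring genes were compared as pairs. MT-ND6 and MT-ND5 lie tail to tail on opposite strands, and per 100 MT-ND5 counts there were 32.9 and 32.4 MT-ND6 counts in OE-WT against 32.5 and 33.9 in CTRL, so this ratio hardly varied and the groups overlapped. The library kit keeps strand, but the strand setting used for counting is not given in the sources used here, so MT-ND6 reads cannot be told apart from RNA antisense to MT-ND6. Per 100 MT-ND4 counts there were 5.57 and 5.41 MT-ND4L counts in OE-WT against 4.80 and 4.99 in CTRL, with no overlap, although both frames lie on the same mRNA. For the other bicistronic pair, MT-ATP8 per 100 MT-ATP6 counts was 3.32 and 3.51 in OE-WT and 3.22 and 3.31 in CTRL, with OE-WT library 1 just above CTRL library 2. Reads that touch both genes of a pair may be set aside when genes are counted, and their part in these ratios was not tested.

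Per length, the order of the members was the same in both groups and within each of the 4 libraries. In CTRL cells MT-ND1 was at 22641 ± 2427 CPM per kb (SD, n = 2), MT-ND4 at 19288 ± 2571 and MT-ND2 at 15901 ± 1848. MT-ND3 followed at 9325 ± 1244 CPM per kb, MT-ND6 at 7590 ± 1220, MT-ND5 at 6611 ± 860 and MT-ND4L at 4389 ± 705. In OE-WT cells the same genes were at 26203 ± 1654, 24655 ± 3226, 19323 ± 1310, 11279 ± 2112, 10680 ± 1838, 9463 ± 1524 and 6291 ± 954 CPM per kb. Pooled over the 2 libraries of a group, the values of MT-ND1 and MT-ND4 overlapped. So did those of MT-ND3 and MT-ND6 and those of MT-ND6 and MT-ND5. Within a library the gap could be small, as with 27372 for MT-ND1 and 26936 CPM per kb for MT-ND4 in OE-WT library 1. The libraries of a group did not overlap between MT-ND4 and MT-ND2, between MT-ND2 and MT-ND3 or between MT-ND5 and MT-ND4L. For MT-ND4 and MT-ND2 in CTRL the margin was small, with 17470 in CTRL library 1 against 17207 CPM per kb in CTRL library 2. All 7 lay below MT-CO1, MT-CO2 and MT-CO3, which ranged from 31472 to 34471 CPM per kb as CTRL means, and above MT-ATP8 at 1624 CPM per kb. The counts assigned to MT-ND6, known for lacking a poly(A) tail, lay per length between those of MT-ND3 and MT-ND5 in every library. These counts cannot be told apart from RNA antisense to MT-ND6, and the part of poly(A) selection in them was not tested.

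**Figure D4:**
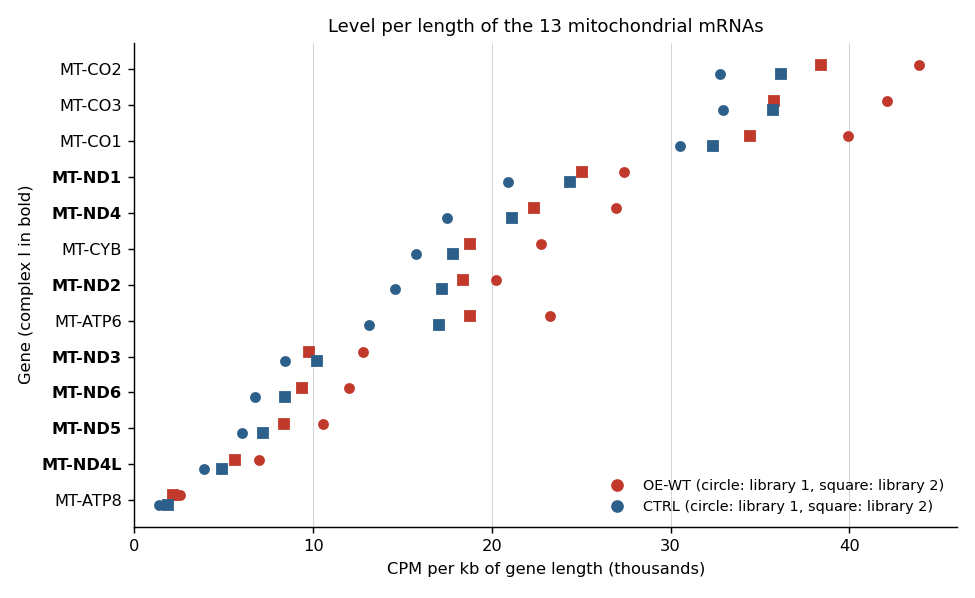
CPM per kb of gene length (divided by 1000, linear axis from 0) of the 13 mitochondrial mRNAs, with complex I in bold, 1 symbol per library (OE-WT red, CTRL blue, library 1 circles, library 2 squares). Complex I mRNAs spread from MT-ND1, at 22641 CPM per kb as a CTRL mean and below the 3 MT-CO genes, to MT-ND4L, at 4389 and above MT-ATP8.

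The mitochondrial rRNAs, which are made from the same plus-strand transcription, also rose. MT-RNR1 of the small ribosomal subunit was at 31236 and 29910 CPM in OE-WT and 17799 and 17043 CPM in CTRL, a log2 fold change of 0.81 ± 0.08 (SE, adjusted p = 5.4e-07), above that of any complex I mRNA. MT-RNR2 of the large subunit had 0.54 ± 0.10 (SE, adjusted p = 0.00039), close to MT-ND4L and MT-ND5. RNAs that lack a poly(A) tail differed among themselves. RN7SL2, the RNA of the signal recognition particle, rose with a log2 fold change of 1.27 (adjusted p = 3e-10), SNORD3A had 0.14 (adjusted p = 0.348), and 4 of the 6 listed were at 0 in all libraries. The part of poly(A) selection in the values of MT-ND6 and of the rRNAs was not tested. Of the 22 mitochondrial tRNA genes, 12 were tested, of which MT-TQ, MT-TS1 and MT-TP were called higher and MT-TA lower. Of all genes tested, 9.44% were called higher and 11.6% lower. MT-TA was at 11.2 and 14.6 CPM in OE-WT against 14.9 and 47.9 CPM in CTRL, so its call leaned on CTRL library 2.

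Nuclear DNA carries old copies of mitochondrial sequence that can share reads with the members. Of 217 complex I copies in the table, named as MTND pseudogenes, 15 had at least 1 count and 5 were tested. MTND2P28, at chr1:629640-630683 and 98.4% identical to MT-ND2 with 17 differing bases, had 11356 and 10092 counts in OE-WT against 9995 and 10822 in CTRL. That is 5.41 and 5.16 counts per 100 MT-ND2 counts in OE-WT against 5.10 and 4.89 in CTRL, and it rose with a log2 fold change of 0.37 (adjusted p = 0.0016), near the 0.28 of MT-ND2. MTND4P12, at chr5:134926660-134928036 and 95.7% identical to MT-ND4, had 531 and 347 counts in OE-WT against 297 and 389 in CTRL. Its raw counts overlapped between the groups, while its CPM, at 53.4 and 34.0 in OE-WT against 23.0 and 31.5 in CTRL, did not, and its log2 fold change was 0.68 (adjusted p = 0.0027). MTND1P23, at chr1:629062-629433, has 372 bases where MT-ND1 has 956, and is 96.8% identical over them with 12 differing bases. It had 111 to 157 counts and a log2 fold change of 0.30 (adjusted p = 0.243). How reads were split between members and copies is not given in the sources used here, so the values of MT-ND1, MT-ND2 and MT-ND4 are uncertain where reads match both.

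Of the nuclear genes of complex I 34 were tested, with 1 called higher and 3 lower, against 9.44% and 11.6% of all genes, so their share called was no larger than that of all genes. Of the 7 core subunits of the peripheral arm, 6 were tested and 0 were called, with log2 fold changes from -0.03 to 0.03. NDUFS1, the largest of them, was at 35.0 CPM as a mean in OE-WT and 35.3 in CTRL, and NDUFV1, which binds NADH, was at 77.4 and 77.5. Of the 30 accessory subunits, 28 were tested, 1 was higher and 3 were lower, with a median of -0.03. NDUFA10 rose (0.27, adjusted p = 0.0104), and NDUFB9 (-0.53, adjusted p = 3.8e-06), NDUFS4 (-0.35, adjusted p = 0.0374) and NDUFB4 (-0.26, adjusted p = 0.0129) fell. NDUFV2, NDUFA7 and NDUFA13 had at most 1.09 CPM in any library and were not tested. Of the 19 assembly factors, which build the complex and are not part of it, only ACAD9 was called (0.34, adjusted p = 0.0075), and the median was 0.05. The difference between nuclear and mitochondrial subunits was described by these counts and was not itself tested.

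The proteins that make and handle mitochondrial mRNA were encoded by genes at far lower levels, and a few of them changed. Of 15 genes for transcription and DNA maintenance 14 were tested. Of these, 1 was called higher and 1 lower, against 9.44% and 11.6% of all genes tested. TFAM, which packages mitochondrial DNA and starts its transcription, was at 21.6 and 18.2 CPM in OE-WT and 14.6 and 15.1 CPM in CTRL and rose (0.43, adjusted p = 0.021). POLG, the mitochondrial DNA polymerase, fell by 0.22 on the log2 scale (adjusted p = 0.0499), a call that was lost whenever 1 library was left out (adjusted p from 0.0507 to 0.247), and POLRMT, the RNA polymerase, had -0.19 (adjusted p = 0.0598). Of 21 genes for RNA processing, stability and decay, 4 were higher and 0 lower, with a median of 0.11, against 9.44% of all genes called higher and 11.6% called lower. LRPPRC, which stabilizes mitochondrial mRNAs, was at 37.7 and 33.7 CPM in OE-WT and 24.0 and 27.2 CPM in CTRL and rose (0.48, adjusted p = 0.0016).

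Its partner SLIRP had a log2 fold change of 0.11 (adjusted p = 0.334). TRMT10C, a part of mitochondrial RNase P, was at 13.4 and 10.8 CPM in OE-WT and 5.66 and 9.80 CPM in CTRL and rose (0.65, adjusted p = 0.0252). PNPT1, a component of the mitochondrial RNA degradosome, rose (0.45, adjusted p = 0.0378), as did ELAC2, which cuts the 3′ ends of mitochondrial tRNAs (0.24, adjusted p = 0.0142). FASTK, known for its role in keeping MT-ND6 mRNA stable, had -0.13 (adjusted p = 0.280), and FASTKD5, which acts on mRNA ends that no tRNA flanks, had 0.13 (adjusted p = 0.457). TRMT61B, the mitochondrial m1A enzyme, was at 5.53 and 7.06 CPM in OE-WT and 6.21 and 6.64 CPM in CTRL, with overlapping groups and an adjusted p of 0.940. DESeq2 called 1 gene higher and 1 lower over these nuclear lists together, where edgeR's quasi-likelihood test called 7 and 4. Over all genes, DESeq2 called 4.35% higher and edgeR's test 9.44%. Among the called genes followed through every alternative, LRPPRC and NDUFB9 kept their calls throughout. Without CTRL library 1 the call was lost for NDUFB4, ACAD9, TFAM, TRMT10C (0.30) and PNPT1 (0.21), and without OE-WT library 1 for NDUFB4, NDUFS4, TFAM, TRMT10C (0.49) and PNPT1 (0.28). Without CTRL library 2 it was lost for NDUFS4 (-0.24).

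A few nuclear genes followed the complex I mRNAs closely over the 4 libraries. The mean profile of the 7, as log2 CPM centred per gene, was 0.33 and 0.05 in OE-WT and -0.33 and -0.05 in CTRL. Among 7820 nuclear genes with a mean of at least 10 CPM, the nearest by root mean square difference were HNRNPR (0.0087), KAT6A (0.016), TFRC (0.018), NUP54 (0.021) and SPOP (0.022). The farthest member from its own mean profile, MT-ND1, lay at 0.099, and 426 nuclear genes lay at most that far. The profile has only 4 points, so many genes match it.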

How the data were processed

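RNA sequencing of DLD1 cells was analysed from a single table of raw counts per gene, deposited by the authors with 1 column per library. The study's methods describe trimming with Cutadapt, alignment to GRCh38 with HISAT2 and counting with HTSeq, while the submitters' processing notes name HISAT2 2.2.1, featureCounts 2.0.0 and DESeq2 1.34.0. Annotation release and strand setting of the counting are not given in the sources used here. The table had 0 other columns per sample. GENCODE release 44 matched 57532 of 58302 identifiers.

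Counts were tested with edgeR 4.0.16 in R 4.3.3 (quasi-likelihood test, TMM scaling, filter by group at a minimum count of 10, Benjamini-Hochberg adjustment over 14133 genes), and calls are adjusted p-values below 0.05. For relative changes the library size was the summed counts of the 6 other mitochondrial mRNAs. Alternatives were DESeq2 1.42.0, other scalings and filters, a replicate block and leaving out each library. Shares were compared by exact permutation tests over all ways to split the 4 libraries into groups of 2. The edgeR script was tested on simulated data with 200 changed genes. Intervals of 95% are the estimate ± 1.96 SE.

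Same-numbered libraries did not deviate together (correlation -0.07 over 14133 genes), so the numbers were not used as pairs. Libraries correlated at r = 0.990 within OE-WT, 0.992 within CTRL and 0.977 to 0.983 between groups, over log2 CPM. The members and gene lists were chosen with earlier results of these data known. Genes named were all mitochondrial mRNAs and rRNAs, up to 3 highest and 3 lowest called genes per list, a few mitochondrial RNA factors of known role (TRMT61B, TRMT10C, POLRMT, TFAM, LRPPRC, SLIRP, FASTK, FASTKD5), the 3 most counted nuclear copies and the 5 nearest profiles. Other genes were named outside that rule, after their values were seen. These were cell type markers, MT-TQ, MT-TS1, MT-TP, MT-TA, ELAC2, RN7SL2, SNORD3A, NDUFS1, NDUFV1 and the untested NDUFV2, NDUFA7 and NDUFA13.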

Additional observations from a re-analysis of the deposited data

How the results depend on the processing

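With 2 libraries per group, both the calls and the log2 fold changes of the members depended on single libraries. Without 1 library the log2 fold change ranged from 0.11 to 0.32 for MT-ND1, 0.17 to 0.40 for MT-ND2, 0.07 to 0.44 for MT-ND3, 0.22 to 0.50 for MT-ND4, 0.36 to 0.69 for MT-ND4L, 0.34 to 0.66 for MT-ND5 and 0.31 to 0.67 for MT-ND6. The number of members called was 5 with all libraries, 3 with the plain library size, 1 with DESeq2, and between 1 and 7 when 1 library was left out (1 without OE-WT library 1, 3 without CTRL library 1). When 1 library is left out, the lone library of its group is assumed to vary like the other group. With the replicate block it was 4 (MT-ND2 lost its call), and the libraries share only a number, so this is no paired result. The block called 2658 of all genes, where the fit without it called 2976, DESeq2 1373 and the fit with no filter beyond 1 count 2271. The ratio of the summed share, 1.18, ranged from 1.10 to 1.29 without 1 library. Over all genes tested, 1334 of the 2976 calls were in the higher direction. With the plain library size it was 735 of 3183, with DESeq2 519 of 1373 and with no filter 844 of 2271. Over the nuclear lists the calls were 7 higher and 4 lower. They were 3 and 11 with the plain library size, 1 and 1 with DESeq2, and 3 and 2 with no filter. Without 1 library they ranged from 3 to 8 higher and from 1 to 4 lower. Relative to the other mitochondrial mRNAs no member was called in any alternative run. Relative log2 fold changes near 0 changed sign for MT-ND1 without OE-WT library 1 (0.0049), for MT-ND2 against all 13 mRNAs (-0.0060) and without OE-WT library 2 or CTRL library 1 (-0.023 and -0.024), and for MT-ND3 against all 13 mRNAs (-0.021) and without OE-WT library 1 or CTRL library 1 (-0.069 and -0.056). TRMT61B, at -0.03 with all libraries, ranged from -0.23 to 0.14 without 1 library, with a positive sign without OE-WT library 1 (0.14) or CTRL library 2 (0.022). The causes were not tested.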
